A study of Mus musculus with 8 samples.

Results

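Phospholipid flippases and their partners were examined in photoreceptor cells of mice lacking the lysophospholipid acyltransferase LPCAT1. The set held 9 of the 22911 mouse genes that had a probe on the array: the P4-ATPase catalytic subunits Atp8a1, Atp8a2, Atp8b2, Atp9a, Atp9b, Atp11a and Atp11b, the CDC50A subunit gene Tmem30a, and the scramblase gene Xkr8. They were chosen by gene name, through the RefSeq accession of each probe, and 20 probes were found. All 20 probes were well above background on all 8 arrays, so each of the 9 genes was measured in every sample.

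The data were single-color Agilent expression arrays of cells isolated at postnatal day 8 (P8) from retinas of Lpcat1 heterozygous (HZ, n = 4) and Lpcat1 knockout (KO, n = 4) mice of the C57BL/6 strain. HZ mice, which keep a functional Lpcat1 allele, were the controls, and the deletion is global, so every retinal cell type of the KO mice lacks the gene. The KO line was made on C57BL6/N and crossed with C57BL6/J, and mice homozygous for the rd8 mutation of Crb1 were not used. Cells of both groups were dissociated with trypsin and collected with an antibody to CD73, a surface protein of rod precursors, on magnetic beads. In such bulk samples, fewer cells of a type and less RNA per cell cannot be told apart.

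P4-ATPases are flippases: they use ATP to move phospholipids, mainly phosphatidylserine and phosphatidylethanolamine, from the outer to the cytoplasmic leaflet of a membrane. Most of them leave the endoplasmic reticulum and work only in a complex with a CDC50 subunit, of which CDC50A is the most widely used, while ATP9A and ATP9B do not need it. Scramblases do the opposite and let phospholipids move freely between leaflets. XKR8 is switched on by caspases and exposes phosphatidylserine on dying cells, a signal for phagocytes. In photoreceptor cells ATP8A2 with CDC50A resides in outer segment disc membranes, and loss of either leads to photoreceptor degeneration.

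A value is the normalized log2 signal, the log2 intensity of a probe minus the 75th percentile of its own array, so that 0 is the level of that percentile and a step of 1 is a doubling. A difference is the mean of the KO arrays minus the mean of the HZ arrays on this scale. Values of different probes cannot be set against each other, because probes bind with different strength. Where a gene had several probes, the brightest stood for it and the others are given beside it. The test was limma's moderated test with Benjamini-Hochberg adjustment over all 34303 tested probes. Nothing in the labels says that arrays of a group came from separate animals, so p-values measure the spread between these samples.

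The arrays were alike in depth of signal. Between 59.5% and 64.6% of probes were well above background per array, no spot was saturated, and the 75th percentile lay between 882 and 1024 intensity units. HZ replicate 4 had 458 non-uniform spots against 2 to 25 on each other array. Lpcat1 itself did not separate the labels: its only probe differed by -0.04 (SE 0.11, adjusted p = 0.931 by limma), and where this probe lies relative to the deleted part of the gene is not given in the sources used here. The arrays are therefore called by their labels. All 13 rod markers on a fixed list were measured, with a summed level (the sum of their linear normalized signals) of 953 to 1193 in HZ and 936 to 1054 in KO. Of these markers, 2 were higher and 11 lower in KO, each with overlapping groups.

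None of the 9 genes differed between the arrays labelled HZ and KO past the stricter threshold of the methods. Of the 20 probes, 10 were higher and 10 were lower in KO, with a median difference of -0.0017 beside 0.0023 over all tested probes. At that threshold, more than a 1.2-fold change with adjusted p below 0.05, 0 of the 20 probes were called by limma, as were 0 probes in the whole table (0%). At the looser threshold of the methods, more than 1.5-fold with adjusted p below 0.5, a single member probe passed, the dimmer probe of Atp8b2, which was higher in KO; 78 of all tested probes (0.227%) passed in that direction. At an unadjusted p under 0.05, limma gave 3 of the 20 member probes, which is 15% of them, beside 8.17% of all tested probes, and the methods' t-test, on each probe alone, gave 4, beside 9.14% of all tested probes. These 3 were probes of Atp8b2, Atp11a and Xkr8.

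**Figure D1:**
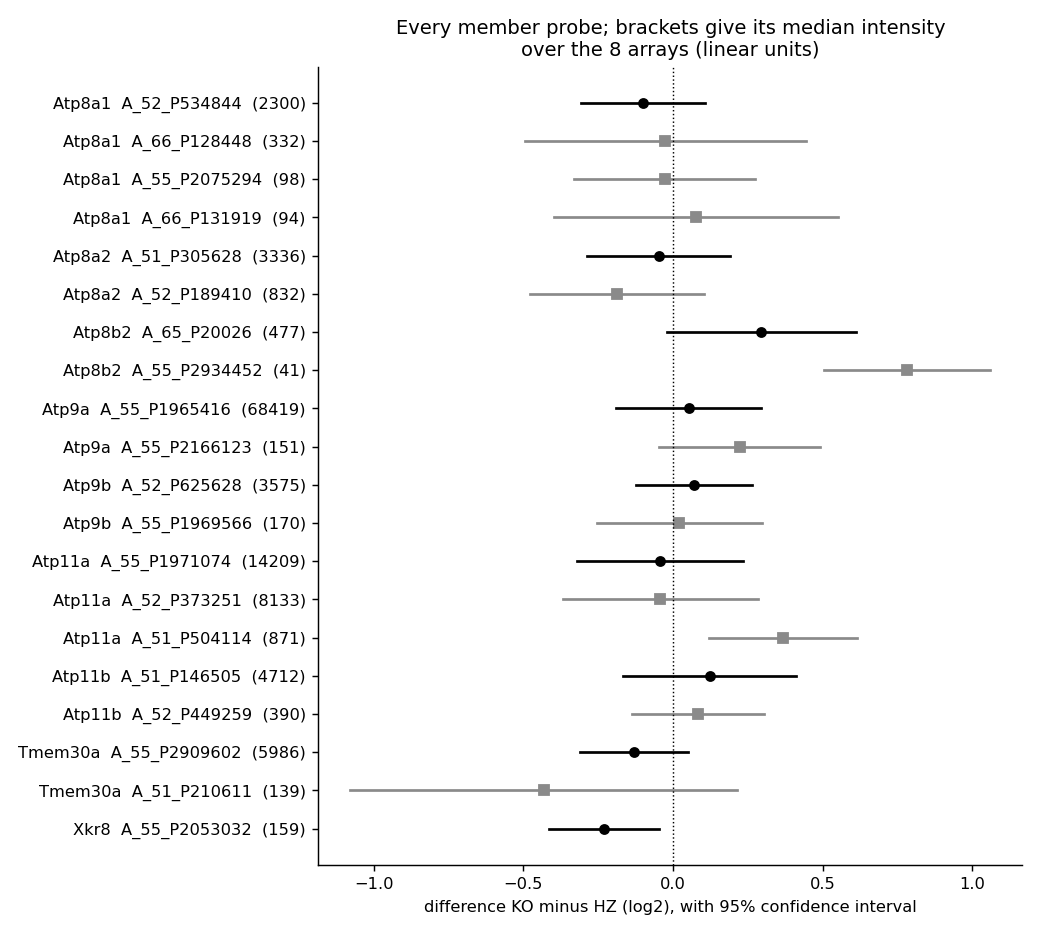
Difference KO minus HZ on the log2 scale (x axis) for each of the 20 member probes (rows, with the median intensity over the 8 arrays in brackets). Circles mark the brightest probe of each gene, squares the others, and bars the 95% confidence interval. The intervals of 3 probes leave out 0: A_55_P2934452 of Atp8b2 (0.78) and A_51_P504114 of Atp11a (0.37) above it, and A_55_P2053032 of Xkr8 (-0.23) below it.

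The groups did not overlap at all, KO above HZ, for 3 member probes, and 4.19% of all tested probes did the same. KO lay wholly below HZ for 1 member probe, that of Xkr8, against 2.14% of all tested probes. The 9 brightest probes are described first by the role of each gene, from the catalytic subunits to the accessory subunit and the scramblase.

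**Figure D2:**
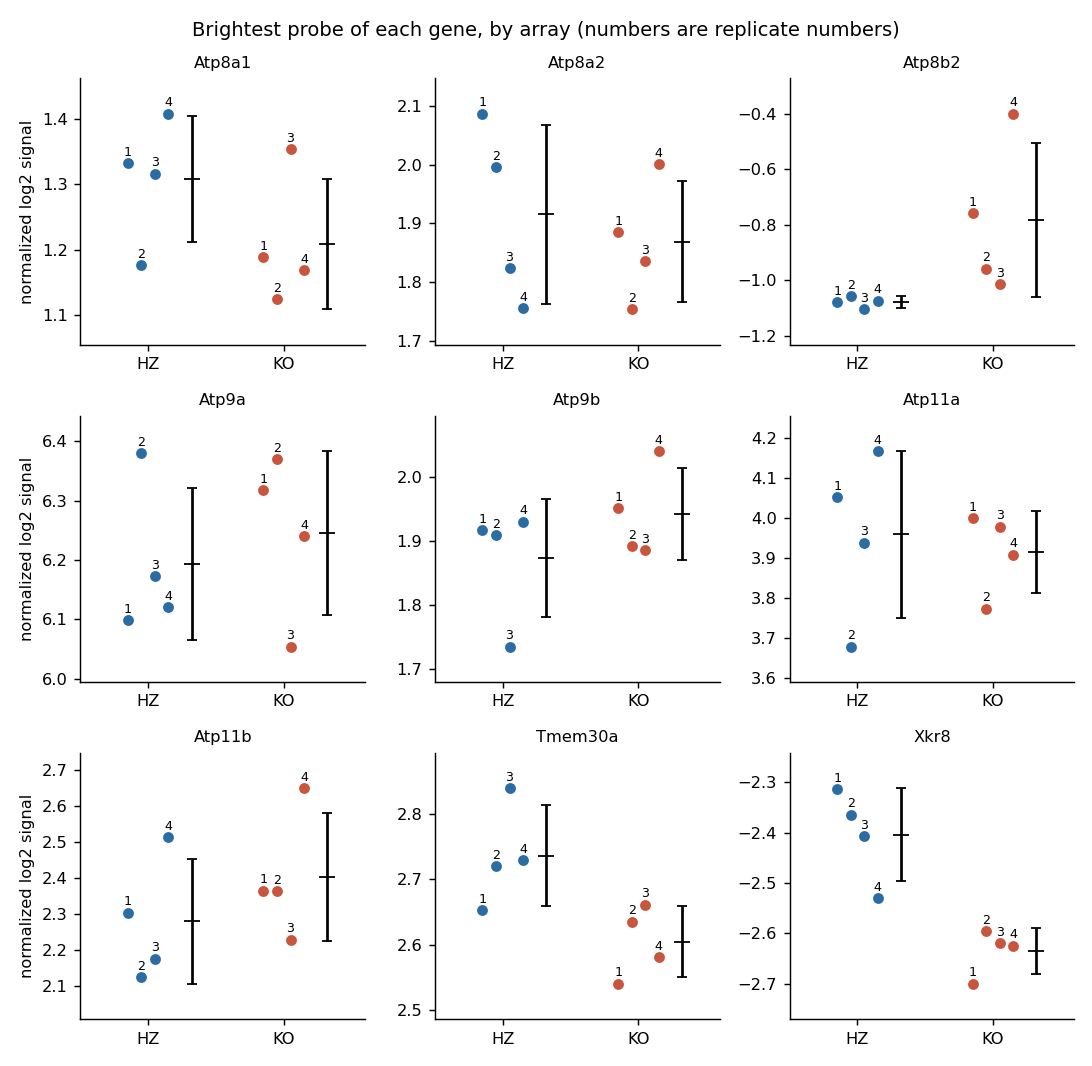
Normalized log2 signal (y axis, a range of its own in each panel) of the brightest probe of each of the 9 genes in the 4 HZ and 4 KO arrays. Each point is 1 array, labelled with its replicate number, and the black mark and bar are the mean and SD of the 4 arrays. HZ and KO points are apart for Atp8b2 and Xkr8 and overlap for the other 7 genes.

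Atp8a2 encodes the flippase of photoreceptor disc membranes. Its brighter probe read 2.09, 2.00, 1.82 and 1.76 in HZ replicates 1 to 4. In KO replicates 1 to 4 it read 1.88, 1.75, 1.84 and 2.00. The groups overlapped fully, KO replicate 4 lying as high as HZ replicate 2 and KO replicate 2 as low as HZ replicate 4. The difference was -0.05 (SE 0.10, adjusted p = 0.904), and its 95% confidence interval ran from -0.29 to 0.19. A change within that interval, up or down, is compatible with these arrays, and the interval is not a limit of detection. A second probe, A_52_P189410, differed by -0.19 (SE 0.13, adjusted p = 0.714), with KO replicate 4 lowest at -0.53.

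Atp8a1, the closest relative of Atp8a2 and a phosphatidylserine flippase of brain and other tissues, was measured by 4 probes. The brightest, A_52_P534844, read 1.33, 1.18, 1.32 and 1.41 in the HZ arrays and 1.19, 1.12, 1.35 and 1.17 in the KO arrays. KO replicate 3 lay among the higher HZ arrays, and the other 3 KO arrays lay near HZ replicate 2, the lowest of its group. The difference was -0.10 (SE 0.09, adjusted p = 0.770). The other 3 probes differed by -0.03, -0.03 and 0.08, each with overlapping groups.

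Atp8b2, which encodes a flippase of the plasma membrane that carries phosphatidylcholine, was the member with the largest difference, and both of its probes separated the groups. Probe A_65_P20026 read -1.08, -1.06, -1.11 and -1.07 in HZ, a narrow band with an SD of 0.02. In KO it read -0.76, -0.96, -1.01 and -0.40, each above every HZ value, with an SD of 0.28. The KO arrays thus lay higher and further apart, with replicates 4 and 1 well above the others. The difference was 0.30 (SE 0.14, adjusted p = 0.626 by limma) and did not pass the test. It was 0.17 without KO replicate 4 and 0.13 with another background correction (normexp).

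The dimmer probe of Atp8b2, A_55_P2934452, read -5.14, -4.86, -4.77 and -4.84 in HZ and -3.89, -4.15, -4.29 and -4.15 in KO. Here the lowest KO array was clearly above the highest HZ array, and the SDs of 0.16 and 0.17 were alike. The signal of this probe was higher in KO by 0.78 (SE 0.12), a fold change of 1.72. The adjusted p was 0.279 by limma, which passes the looser threshold and not the stricter one. The SE was 0.19 with a trend and robust variance, and 0.21 after quantile normalization, where the difference was 0.94. The probe was among the dimmest tested: its intensities were 27.5 to 35.3 units in HZ and 46.6 to 60.5 in KO, and the 10th percentile of all probes well above background was -4.91 to -4.39 in the HZ arrays. After normexp the difference was 0.31, below the fold threshold. The probe also left the looser threshold without HZ replicate 1 (0.70, adjusted p = 0.589 by limma), HZ replicate 3 (0.83, 0.635), KO replicate 3 (0.84, 0.529) or KO replicate 4 (0.79, 0.611). There the difference stayed close to its size and the adjusted p was above 0.5. In the same order, 1, 0, 0 and 0 of all 34303 tested probes passed that threshold in these settings, beside 357 with all arrays.

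**Figure D3:**
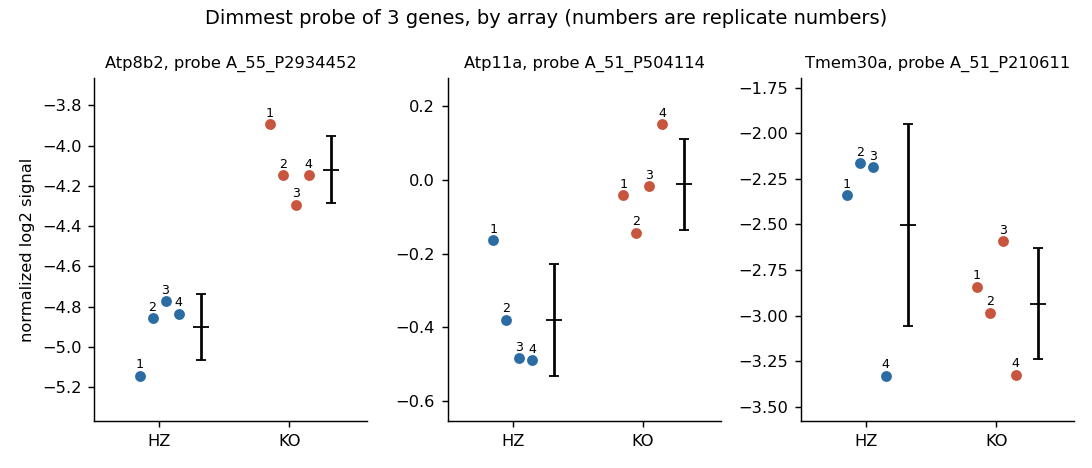
Normalized log2 signal (y axis, a range of its own in each panel) of the dimmest probe of Atp8b2, Atp11a and Tmem30a in the 4 HZ and 4 KO arrays. Each point is 1 array, labelled with its replicate number, and the black mark and bar are the mean and SD. KO lies above HZ without overlap for Atp8b2 and Atp11a, and for Tmem30a both arrays of number 4, at -3.33 and -3.32, lie below all others.

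Atp11a, a phosphatidylserine and phosphatidylethanolamine flippase of the plasma membrane that caspases can cut, had 3 probes that did not move together. The brightest, A_55_P1971074, read 4.05, 3.68, 3.94 and 4.17 in HZ and 4.00, 3.77, 3.98 and 3.91 in KO, all KO values inside the HZ range. It differed by -0.04 (SE 0.12, adjusted p = 0.924), and the second, A_52_P373251, also by -0.04 (SE 0.14, adjusted p = 0.938). The dimmest, A_51_P504114, read -0.16, -0.38, -0.48 and -0.49 in HZ and -0.04, -0.14, -0.02 and 0.15 in KO, with no overlap. Its difference was 0.37 (SE 0.11, adjusted p = 0.465 by limma), a fold change of 1.29, which passes neither pair of thresholds. With normexp it was 0.20 and no longer had an unadjusted p under 0.05. What separates the 3 probes, such as the transcripts they bind, was not tested.

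Atp11b, a flippase of endosomes and other internal membranes, read 2.30, 2.12, 2.18 and 2.51 in HZ and 2.36, 2.36, 2.23 and 2.65 in KO with probe A_51_P146505. The difference was 0.12 (SE 0.13, adjusted p = 0.788), with groups that overlapped. After normexp it turned to -0.23 (adjusted p = 0.474 by limma), so no direction can be given for this gene. Its second probe, whose spot on HZ replicate 4 was an outlier and was left out, differed by 0.08 (SE 0.09, adjusted p = 0.809, n = 3 HZ and 4 KO arrays).

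Atp9a and Atp9b, the CDC50-independent members of the trans-Golgi and endosomes, also overlapped between the groups. Atp9a read 6.10, 6.38, 6.17 and 6.12 in HZ and 6.32, 6.37, 6.05 and 6.24 in KO with its brighter probe. The lowest and the highest of these 8 values were KO replicate 3 and HZ replicate 2, and the difference of 0.05 (SE 0.11, adjusted p = 0.894) became -0.027 after quantile normalization. Its dimmer probe differed by 0.22 (SE 0.12, adjusted p = 0.660). Atp9b read 1.92, 1.91, 1.73 and 1.93 in HZ and 1.95, 1.89, 1.89 and 2.04 in KO. HZ replicate 3 stood apart below the other 7 arrays, and the difference was 0.07 (SE 0.08, adjusted p = 0.821). The second Atp9b probe differed by 0.02 (SE 0.12, adjusted p = 0.965).

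Tmem30a, the gene of the CDC50A subunit that most P4-ATPases depend on, read 2.65, 2.72, 2.84 and 2.73 in HZ and 2.54, 2.64, 2.66 and 2.58 in KO with probe A_55_P2909602. Only KO replicate 3 reached into the HZ range, just above HZ replicate 1. The difference was -0.13 (SE 0.08, adjusted p = 0.692), with a 95% confidence interval from -0.31 to 0.05. The dim probe A_51_P210611 read -2.34, -2.16, -2.18 and -3.33 in HZ and -2.84, -2.98, -2.59 and -3.32 in KO. Both arrays of number 4 were the lowest of their group, and among the other 6 arrays each KO value was below each HZ value. This probe differed by -0.43 (SE 0.28, adjusted p = 0.707 by limma) over all arrays. Without HZ replicate 4 the difference was -0.71 (adjusted p = 0.472), which passes the looser threshold.

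Xkr8, the scramblase that exposes phosphatidylserine on apoptotic cells, had 1 probe, which read -2.31, -2.36, -2.41 and -2.53 in HZ. In KO it read -2.70, -2.60, -2.62 and -2.62. All KO arrays lay below all HZ arrays, and HZ replicate 4 was nearest to them. The difference was -0.23 (SE 0.08, 95% confidence interval -0.42 to -0.05), a fold change of 1.17, with an adjusted p of 0.533 by limma, so that it passed neither pair of thresholds. Leaving out any single array gave differences between -0.27 and -0.20, and normexp gave -0.08. Its unadjusted p was above 0.05 with normexp, with quantile normalization (-0.17), with a trend and robust variance, and without HZ replicate 1 (-0.20) or KO replicate 1 (-0.21).

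The arrays carry replicate numbers in the labels, and same-numbered HZ and KO arrays deviated together from their group means. KO and HZ were therefore also compared within each number. Atp8b2 was higher in KO in 4 of 4 numbers with its brighter probe, by 0.32, 0.10, 0.09 and 0.67. Atp11b was higher in 4 of 4 numbers too, by 0.06, 0.24, 0.05 and 0.14. With normexp its mean difference turned to -0.23, so these signs give no direction for the gene. Tmem30a was lower in 4 of 4 numbers, by differences of -0.11, -0.09, -0.18 and -0.15, which are closer to each other than the arrays of a group were.

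Xkr8 was lower in all 4 numbers as well, with differences of -0.39, -0.23, -0.21 and -0.09. The other 5 genes changed sign between numbers. How many of all tested probes kept the same sign in all 4 numbers is not given here, so these counts are descriptions only. Atp8a2 differed by -0.20, -0.24, 0.01 and 0.25. Its KO array was thus the lower one in numbers 1 and 2 and the higher one in number 4. With the replicate number as a block in the model, 4 of the 20 member probes had an unadjusted p under 0.05 in place of 3, while the share of all tested probes was 11.9% in place of 8.17%. The added one was the dim probe of Tmem30a (-0.43, adjusted p = 0.401 by limma), whose difference within number 4 was 0.01.

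**Figure D4:**
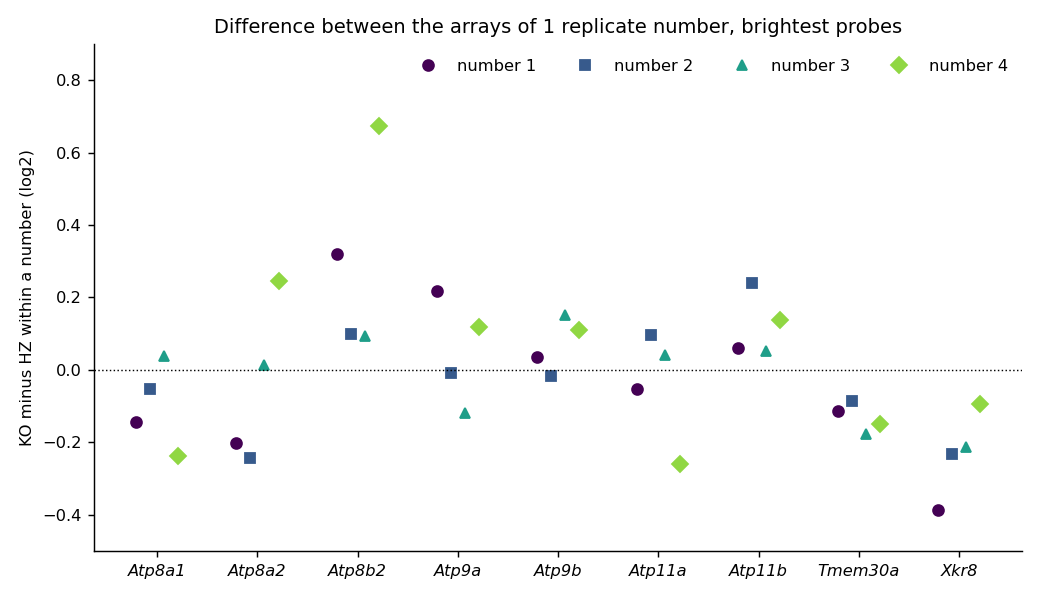
Difference between the KO and the HZ array of the same replicate number (y axis, log2) for the brightest probe of each of the 9 genes (x axis), with 1 symbol per number. All 4 symbols lie above 0 for Atp8b2 and Atp11b and below 0 for Tmem30a and Xkr8. The mean Atp11b difference turned to -0.23 with normexp. The other 5 genes have symbols on both sides.

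The replicate number itself was tested with a moderated F test in a model with genotype. None of the 20 member probes and no probe of the whole table (0%) passed an adjusted p of 0.05 by limma. At an unadjusted p under 0.05, 3 member probes (15%) and 13.8% of all tested probes were called, so the members stood near the share of the whole table. The 3 were A_66_P128448 of Atp8a1, lowest in number 2 (mean -1.99, highest -1.37 in number 1), A_52_P373251 of Atp11a, lowest in number 2 (2.91, highest 3.41 in number 4), and the dim probe of Tmem30a, lowest in number 4 (-3.33, highest -2.39 in number 3). Their adjusted p-values by limma lay between 0.318 and 0.327. The brightest probe of Atp11b came next to these, at 2.20 in number 3 and 2.58 in number 4 (adjusted p = 0.370). Both arrays of number 4 were the highest of their group for Atp11b.

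Since CDC50A is a shared subunit, the signal of Tmem30a was compared across the 8 arrays with that of each of the 7 P4-ATPase genes. The 7 relations gave no exact two-sided permutation p that passed Benjamini-Hochberg adjustment. The lowest coefficient was that of Atp9b, with Pearson's r = -0.80 (exact permutation p = 0.0259, adjusted p = 0.181) and Spearman's rho = -0.62 (exact permutation p = 0.115, adjusted p = 0.344). Without the 2 arrays farthest from the median of Tmem30a, HZ replicate 3 and KO replicate 1, r was -0.57. Atp8b2 gave r = -0.70 (exact permutation p = 0.0619, adjusted p = 0.217) and rho = -0.83 (exact permutation p = 0.0154, adjusted p = 0.108), with r = -0.80 without those 2 arrays. After the mean of each genotype was subtracted, the coefficient of Atp8b2 was -0.41 and that of Atp9b -0.80, and after normexp that of Atp8b2 was -0.077.

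Atp8a1 gave the highest coefficient, r = 0.50 (exact permutation p = 0.214, adjusted p = 0.374) with rho = 0.52 (exact permutation p = 0.197, adjusted p = 0.344). The remaining 4, Atp8a2, Atp9a, Atp11a and Atp11b, lay between -0.51 and -0.01. Only 4 arrays stand behind each genotype, too few for a correlation within one.

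The genes whose signal followed a member most closely over the 8 arrays were listed as a description, out of 14761 genes. For Atp8a2 they included Lpcat1 (r = 0.95) and Dnajc9 (0.95), the genes of the targeted acyltransferase and of a chaperone for histones. The arrays thus fell in nearly the same order by Lpcat1 as by the brighter Atp8a2 probe. These coefficients were picked as the highest of 14761 over 8 arrays and were not tested. The second Atp8a2 probe did not share the pattern, with r of -0.25 and -0.39 for the same genes. For Tmem30a they were Chd4 (0.96), a chromatin remodeler, Cacna2d2 (0.95), a calcium channel subunit, and Atg4a (0.95), an autophagy protease. The dim Tmem30a probe gave 0.52, 0.58 and 0.31 with them. All values share the same arrays and the same scaling.

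Beyond the 9 members, 44 genes of phospholipid transport and phosphatidylserine synthesis were examined, of which 43 had a probe and 29 were tested. The 29 were spread evenly, 17 higher and 12 lower in KO with a median difference of 0.029, and 1 of them was called at the looser threshold. That was Atp8b5, another P4-ATPase, on a dim probe that read -5.41, -5.73, -5.36 and -5.29 in HZ and -4.93, -4.79, -4.84 and -4.84 in KO without overlap. The difference was 0.60 (SE 0.11, adjusted p = 0.328 by limma). The probe was well above background on 2 of the 4 HZ arrays and on all 4 KO arrays, so that it was tested through the group in which it is brighter, and it was not tested where a signal on all 8 arrays was required.

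Of the 8 other P4-ATPases, 4 were tested, and besides Atp8b5 they included Atp8b4 (-0.32, SE 0.32, adjusted p = 0.783) and Atp10a (0.15, SE 0.13, adjusted p = 0.771). The other CDC50 genes, Tmem30b and Tmem30c, were too dim to test, which leaves Tmem30a as the measured CDC50 subunit. Among the 17 other genes listed from the Xk, Ano and Plscr families, 9 were tested and Plscr1 differed most, by -0.63 (SE 0.27, adjusted p = 0.604 by limma, overlapping groups). Ano6, the calcium-activated scramblase of platelets, differed by 0.18 (SE 0.17, adjusted p = 0.779).

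Bsg and Nptn, the genes of chaperones that bring XKR8 to the plasma membrane, differed by 0.15 (SE 0.09, adjusted p = 0.694) and 0.13 (SE 0.10, adjusted p = 0.727) and did not pass the test. The 3 scramblases of the endoplasmic reticulum and autophagosomes differed by -0.23 for Atg9a, -0.17 for Vmp1 and -0.01 for Tmem41b. Of 7 ABC lipid transporters, 6 were tested, from Abca4 of photoreceptor discs at -0.14 to Abcb4 at 0.36. The phosphatidylserine synthases Ptdss1 (0.03) and Ptdss2 (0.16) and the decarboxylase Pisd (0.02) gave small differences that did not pass the test.

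Among the fixed marker lists of other cells, only that of the retinal pigment epithelium (RPE) had summed levels without overlap between the labels. All 12 tested RPE markers, of 13 listed, were lower in KO. Of them, 8 were past the looser threshold, beside 279 of all 34303 tested probes in that direction. Their summed level was 14.3 to 39.6 in HZ and 7.29 to 14.2 in KO. The nearest arrays, HZ replicate 2 at 14.29 and KO replicate 1 at 14.23, were almost equal. Some of the single RPE markers overlapped between the groups. Microglia markers were higher in 10 of 11, with summed levels of 5.57 to 8.83 in HZ and 5.94 to 9.60 in KO that overlapped. The 1 past the looser threshold, Tmem119, was well above background on 1 HZ and 3 KO arrays. It was thus tested mainly through the group in which it is brighter. The 3 tested red blood cell markers of 6 listed were higher in KO with 0 past the looser threshold. All 3 had an unadjusted p under 0.05 by limma, beside 8.17% of all tested probes. Their summed levels were 0.205 to 0.583 in HZ and 0.314 to 2.12 in KO. Of these, Hbb-bt was well above background on 2 HZ and 4 KO arrays, so it too was tested through the brighter group. All 7 cone markers were higher with 0 called, at 81.0 to 169 in HZ and 133 to 185 in KO. Muller glia markers were higher in 2 and lower in 6, and bipolar cell markers higher in 1 and lower in 6. Amacrine, horizontal and ganglion cell markers were higher in 2 and lower in 1, and vascular markers higher in 3 and lower in 2. Each of these lists had 0 called at the looser threshold. No tested marker was listed at 0, and Lrat, the RPE marker left out, was too dim to test. The part of these cells in the differences of the Atp8b2, Atp11a, Xkr8 and Tmem30a probes between the labels was not tested.

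**Figure D5:**
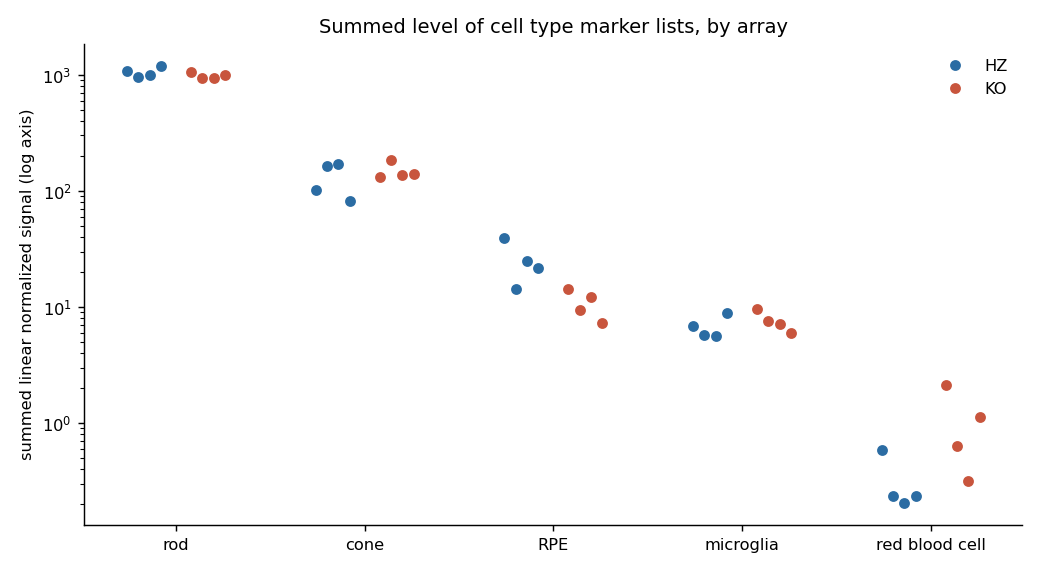
Summed linear normalized signal (y axis, log scale, 1 is the 75th percentile of an array) of the tested genes of 5 marker lists (x axis) in the 4 HZ and 4 KO arrays, 1 point per array. The RPE list is lower in KO, at 7.29 to 14.2 against 14.3 to 39.6, and the rod list overlaps between the groups.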

How the data were processed

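Single-color arrays (SurePrint G3 Mouse GE 8x60K) of CD73-positive cells from P8 retinas were used, 4 labelled HZ and 4 labelled KO. The authors deposited spot intensities from Agilent Feature Extraction 10.7.1.1 with background already subtracted, and log2 values that GeneSpring had shifted by the 75th percentile. In these deposited log2 values each probe was centred on its median over the 8 arrays (array medians -0.0652 to 0.200), so it served as an alternative. All arrays were on the same slide, the KO arrays in one row and the HZ arrays in the other, so row and genotype cannot be told apart, and a replicate number also marks a slide column.

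The log2 intensity minus each array's 75th percentile over non-control spots was taken, without outlier spots and as a mean over a probe's spots. Testing needed a signal well above background on 4 or more arrays and 3 or more values in each group, which 34303 of 56605 probes had. Of these 56605, 32994 matched a symbol by RefSeq accession in a table of GRCm38.p6. Genomic positions are not given, since the array annotation used another build. The two-sided tests were those of limma 3.58.1 (lmFit, eBayes) under R 4.3.3, with version 1.17.8 of data.table, and were first tried on simulated data. Figures used matplotlib 3.10.9. The number of arrays limits the precision.

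The members and lists were chosen with earlier results of these data known. Named are all 9 members with every probe, the up to 3 genes of each transport list with the largest absolute difference, the 3 genes most like Atp8a2 and Tmem30a by Pearson's r, and Lpcat1. Nptn, Tmem30b, Tmem30c, Lrat, Tmem119 and Hbb-bt were named after their values were seen. Some genes that this rule takes in are not reported here. Alternatives were quantile normalization, normexp (offset 50, on the median signal, as the mean is not in the files), a percentile over detected probes, 2 other filters on dim probes, the methods' t-test, a trend and robust variance, the replicate block, the authors' log2 values, the mean of a gene's probes, and each array left out. Deviations of same-numbered HZ and KO arrays from their group means correlated over probes, with r of 0.30, 0.34, 0.17 and 0.24 for numbers 1 to 4 (-0.34 to 0.12 for differing numbers), so the numbers were taken to pair the arrays.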

Additional observations from a re-analysis of the deposited data

Results flagged for a closer look

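Among the values of the 20 member probes in each group, 39 groups of 4 arrays were examined for an array far from the other 3, and 2 were found where chance alone gives about 1.95. For the brighter Atp9b probe, HZ replicate 3 read 1.73 while the other HZ arrays read 1.91 to 1.93. For the dim Tmem30a probe, HZ replicate 4 read -3.33 while the other HZ arrays read -2.34 to -2.16, and KO replicate 4 read -3.32.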

How the results depend on the processing

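Of 395 recomputed values, 360 were rated the same. For differences and coefficients this means the same direction and side of the thresholds, and for counts a value within 1.5-fold. No member probe passed a fold change of 1.2 with an adjusted p of 0.05 under any of the 17 alternatives. The count of 1 probe at a fold change of 1.5 and an adjusted p of 0.5 was 0 with normexp and 0 without a filter on dim probes, and 0 to 2 when an array was left out. The count of 3 probes that differed between replicate numbers at an unadjusted p under 0.05 was 1 without a filter on dim probes and 0 to 2 with an array left out, where fewer arrays stood behind each number. Over the whole table, 357 probes passed the looser threshold, against 41 without the filter, 500 with trend and robust, 1167 with the replicate block and 0 to 1734 with an array left out. Differences of Atp8b2, Atp8a1, Atp9b, Tmem30a and Xkr8 kept their direction under all 18 alternatives. Those that change only the test, the model or the filter on dim probes leave the difference itself unchanged, so they could not turn it. With normexp the difference turned to 0.11 for Atp8a2, 0.0027 for Atp11a and -0.23 for Atp11b, and the r of Tmem30a with Atp11b turned to 0.46. With quantile normalization Atp9a turned to -0.027, and the r of Tmem30a with Atp11a to 0.46. With the mean of a gene's probes Atp11a turned to 0.093. With an array left out, Atp8a2 ranged from -0.10 to 0.0099, Atp11a from -0.14 to 0.025, and the r of Tmem30a with Atp11a from -0.22 to 0.19. The causes were not tested. In the paired analysis with the replicate block, the Atp8b2 difference of 0.78 had an adjusted p of 0.315 and that of Xkr8 an adjusted p of 0.406, and besides the dim Tmem30a probe no call among the members changed.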
